A study of Mus musculus with 6 samples.

Results

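The smooth muscle contractile genes are 10 genes whose products build or regulate the contractile apparatus of smooth muscle cells: Acta2, Actg2, Cnn1, Tagln, Myh11, Mylk, Lmod1, Smtn, Synpo2 and Des. They were chosen by name, and every probe whose RefSeq accession led to one of these mouse symbols was taken. That gave 19 probes, 1 for each of 4 genes, 2 for each of 3 and 3 for each of the other 3, out of 33767 named probes that cover 23462 genes. The colon RNA came from 6 male mice, 3 labelled Control and 3 labelled as Islr knockout, with 1 Agilent array for each animal. Islr encodes a secreted protein with leucine-rich repeats and an immunoglobulin domain that is known from mesenchymal cells. Per the sample source labels both groups had received 3.5% dextran sulfate sodium (DSS), which injures the colon epithelium, in the drinking water for 5 days and had then recovered for 1 day, so neither group shows the uninjured colon. The treatment field of the same labels says that there was no treatment. Strain, age, the Islr allele and the cells in which it was deleted are not given in the sources used here. The design text speaks of a flow separation of the samples and names no sorted population, so the cell mixture behind each RNA sample is also not stated.

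Smooth muscle contracts when calcium and calmodulin activate myosin light chain kinase, which phosphorylates the light chains of smooth muscle myosin and lets it pull on actin filaments. Calponin, transgelin, smoothelin and leiomodin are actin-associated proteins of the same cells, and desmin filaments tie the contractile units together. In the colon these genes are known from the muscle layers that move the gut contents, from the thin muscle layer under the mucosa and from vessel walls. Many of them are transcribed under the control of serum response factor with the coactivator myocardin, through a DNA element called the CArG box.

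The promoters of Acta2, Cnn1 and Des are shown because the first holds elements close to the CArG box and the other two do not hold one in this window. Each is the 250 bases before the gene's start, 5′ to 3′ on the gene's strand, from RefSeq on GRCm38.p6, and lies at chr19:34255374-34255623 (minus strand), chr9:22099003-22099252 (plus strand) and chr1:75360042-75360291 (plus strand). Capitals mark the matches.
Acta2: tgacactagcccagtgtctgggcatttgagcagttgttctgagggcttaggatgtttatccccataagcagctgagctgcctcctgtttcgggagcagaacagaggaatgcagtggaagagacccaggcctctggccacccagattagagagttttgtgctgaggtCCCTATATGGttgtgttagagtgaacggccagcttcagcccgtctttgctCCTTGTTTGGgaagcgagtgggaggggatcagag
Cnn1: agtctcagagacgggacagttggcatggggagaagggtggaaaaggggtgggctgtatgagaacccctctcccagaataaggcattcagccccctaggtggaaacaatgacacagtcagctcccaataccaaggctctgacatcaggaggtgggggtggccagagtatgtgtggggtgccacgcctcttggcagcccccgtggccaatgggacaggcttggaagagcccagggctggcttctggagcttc
Des: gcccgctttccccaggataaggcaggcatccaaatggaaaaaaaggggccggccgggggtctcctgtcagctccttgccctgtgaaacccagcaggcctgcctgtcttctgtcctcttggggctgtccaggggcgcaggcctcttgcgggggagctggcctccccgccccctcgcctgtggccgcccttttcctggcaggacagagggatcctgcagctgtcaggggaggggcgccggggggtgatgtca
Promoters were matched for 7 of the 10 genes; Actg2, Myh11 and Tagln were not in the table. The strict CArG box has CC, 6 bases that are each A or T, and GG, and reads as the same element on both strands. It was found in 0 of the 7 windows and in 482 of 32841 windows of the same length (1.47%). A looser form that allows at most 1 C or G among the 6 inner bases was searched after the strict result was seen, and it contains the strict form. It matched 2820 windows (8.59%) and 1 of the 7, that of Acta2, at CCCTATATGG, which begins 84 bases before the start, and CCTTGTTTGG, which begins 34 bases before it. These are matches of letters in a short window, and nothing in the arrays measured binding there.

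Levels are given as log2 of the processed signal minus the array's 75th percentile of it, so that a level of 0 is that percentile. The 75th percentile ran from 6353 to 7111 signal units on the control arrays and from 4911 to 5820 on the knockout arrays, a mean log2 difference of -0.28. Between 69.4% and 75.4% of spots were well above background, and no spot was saturated. The scanner software marked between 3.26% and 15.99% of an array's spots as outliers. All control arrays lay in one row of the slide and all knockout arrays in the other, so slide row and genotype cannot be told apart. The targeted gene Islr, read with probe A_51_P140742, had levels of 1.57, 1.24 and 1.21 in the controls and -1.40, -0.93 and -1.31 in the knockouts. Its knockout mean was 2.44 log2 units below the control mean with outlier spots missing (SE 0.21, limma adjusted p = 0.0171). Without the third knockout the difference was -2.39 with an adjusted p of 0.0580. Where on the transcript this probe lies relative to the deletion is not stated in the sources used here.

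Across the 19 probes of the 10 genes the knockout mean lay above the control mean at every probe, by 0.18 to 0.85 log2 units with all spots kept, and no probe passed a 5% false discovery rate. With outlier spots kept, their limma adjusted p-values, adjusted over 40172 tested probes, ran from 0.0805 to 0.572. With outlier spots missing, 12 probes of 8 genes could be tested, at differences of 0.18 to 0.91 and adjusted p-values of 0.0957 to 0.577. Over all tested probes 3.97% were called with outlier spots missing and 1.55% were called higher in the knockout, against 4.85% and 1.96% with them kept. At an unadjusted p under 0.05, limma gave 3 of 12 member probes with outlier spots missing and 9 of 19 with them kept, all higher in the knockout. Of all tested probes, 12.8% and 13.3% had such a p and were higher in the knockout. The share with such a p and lower in the knockout was not counted. Counts of lower genes given for other lists below therefore have no such share beside them. A difference above 0 was found at 50% and 51.2% of all tested probes. The 10 genes were chosen with earlier results of these data known, so these counts describe the genes and test nothing about them as a set. In RNA of a mixed tissue, a different number of smooth muscle cells and a different amount of RNA in each such cell cannot be told apart.

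**Figure D1:**
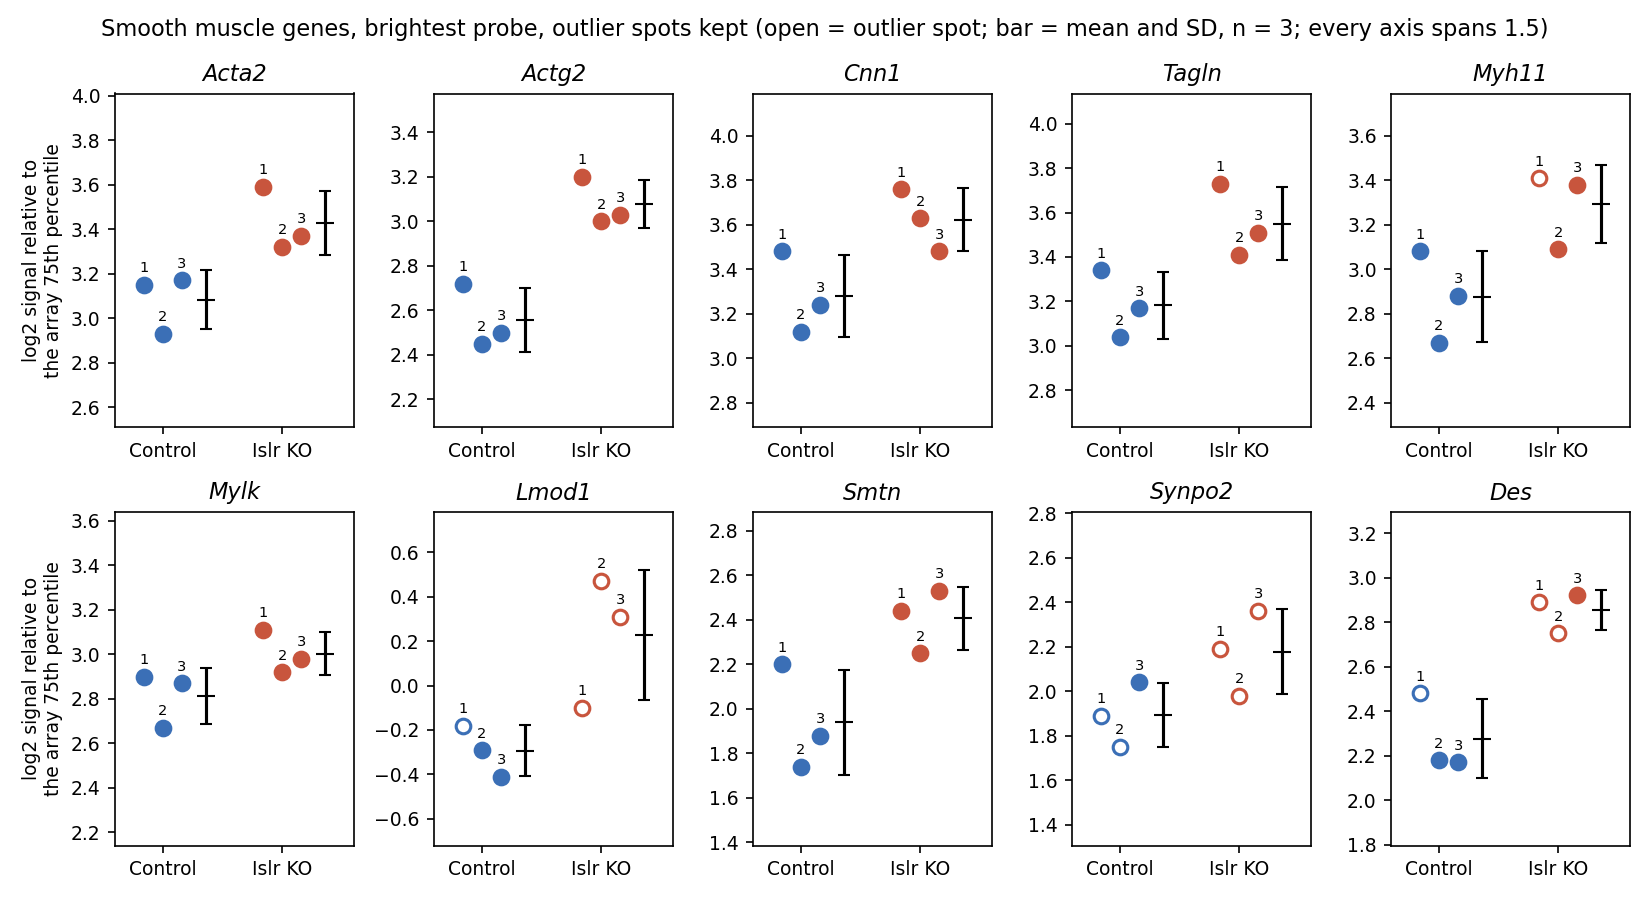
Level of each of the 10 genes on each of the 6 arrays, at the gene's brightest probe on average, as the scaled log2 level, with outlier spots kept; points are single arrays and open symbols mark spots that the scanner software called outliers. The knockout values of Actg2 lie at 3.00 to 3.20 and its control values at 2.45 to 2.72, whereas those of Synpo2 overlap.

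Both muscle actins had separate groups at their brightest probes. Acta2 encodes smooth muscle alpha-actin, an actin of smooth muscle and of activated myofibroblasts. At probe A_51_P450957 its levels were 3.15, 2.93 and 3.17 in the controls and 3.59, 3.32 and 3.37 in the knockouts, so all knockouts lay above all controls. The means were 3.09 ± 0.13 and 3.43 ± 0.15 (SD, n = 3 each), a difference of 0.34 (SE 0.16, limma adjusted p = 0.228), and none of its spots was an outlier. On the deposited signal scale, before any scaling between arrays, the same spots read 56486, 54284 and 59036 in the controls and 59279, 57971 and 59540 in the knockouts. On that scale the third control lay above the second knockout. Acta2 probe A_52_P420504 gave 0.31 (limma adjusted p = 0.239). At the third, A_52_P210078, the levels were 2.05, 1.34 and 1.42 against 2.17, 1.94 and 2.43. There the first control lay above the second knockout, 3 of the 6 spots were outliers, and the difference with all spots kept was 0.57 (limma adjusted p = 0.189).

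Actg2 encodes the gamma-actin of enteric smooth muscle, the main muscle actin of the gut wall. Its single probe, A_51_P241269, read 2.72, 2.45 and 2.5 in the controls and 3.20, 3.00 and 3.03 in the knockouts. The groups did not overlap, with means of 2.56 ± 0.15 and 3.08 ± 0.11 (SD, n = 3 each). The difference was 0.52, or 1.44-fold (SE 0.16, limma adjusted p = 0.0957), with no outlier spot. Among the 12 probes testable with outlier spots missing, this was the lowest adjusted p.

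Calponin and transgelin bind actin filaments. Cnn1, which encodes calponin 1, an inhibitor of the myosin ATPase, read 3.48, 3.12 and 3.24 in the controls and 3.76, 3.63 and 3.48 in the knockouts at probe A_51_P350817. The lowest knockout and the highest control were apart only beyond the second decimal. The difference was 0.35 (SE 0.17, limma adjusted p = 0.237). The other Cnn1 probe, A_55_P2744265, read 2.18, 2.02 and 2 against 2.32, 2.66 and 2.88. Its groups did not overlap, 3 of its spots were outliers, and the difference with them kept was 0.55 (limma adjusted p = 0.121). Tagln encodes transgelin, also called SM22-alpha, an actin-binding protein that is an early marker of smooth muscle. Its probe A_51_P450527 read 3.34, 3.04 and 3.17 in the controls and 3.73, 3.41 and 3.51 in the knockouts, without overlap. The difference of 0.36 (SE 0.16) had a limma adjusted p of 0.213.

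The myosin heavy chain Myh11, the motor of the smooth muscle filament, was read by 3 probes. Probe A_51_P362429 gave 3.08, 2.67 and 2.88 in the controls and 3.41, 3.09 and 3.38 in the knockouts. The groups lay next to each other without overlap, and the difference was 0.42 with all spots kept (limma adjusted p = 0.194) and 0.36 with its 1 outlier spot missing (limma adjusted p = 0.331). At A_55_P1988531 the levels were 2.75, 1.94 and 2.03 against 3.02, 2.83 and 3.10. The first control lay close to the knockouts and the other controls well below, which gave a control SD of 0.44 against 0.14 in the knockouts. The difference was 0.74, or 1.67-fold (SE 0.25, limma adjusted p = 0.118). The widest difference of all 19 probes was at A_55_P2734582, with 1.13, 0.07 and -0.02 in the controls and 1.12, 1.1 and 1.5 in the knockouts. There the first control lay within the knockout range. The difference was 0.85 with all spots kept (SE 0.33, limma adjusted p = 0.158) and 0.91 with its 1 outlier spot missing (SE 0.40, limma adjusted p = 0.214). Without the first control, A_55_P1988531 had a difference of 0.99 (limma adjusted p = 0.0404) and A_55_P2734582 one of 1.28 (limma adjusted p = 0.0481). Both thus passed the threshold in that fit. The same fit called more probes at large than the fit with all arrays. Of its calls 55.1% were higher in the knockout, against 39.1% with all arrays.

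Mylk encodes the myosin light chain kinase that starts contraction, and its 3 probes differed in what they showed. At the brightest, A_52_P575217, the controls read 2.90, 2.67 and 2.87 and the knockouts 3.11, 2.92 and 2.98. The groups did not overlap, but the difference of 0.18 was among the smallest of the 19 (95% interval of the limma fit -0.18 to 0.55, adjusted p = 0.468). At A_51_P286146 the levels were -0.25, -0.54 and -0.56 against -0.53, -0.27 and 0.00, and the groups overlapped. The difference there was also 0.18 (limma adjusted p = 0.577). Probe A_55_P2728282 read 1.36, 1.42 and 1.08 against 1.81, 1.86 and 1.90, with tight knockouts that all lay above the controls. The difference was 0.57 with all spots kept, and its limma adjusted p of 0.0805 was the lowest among the 19 probes. As 5 of its 6 spots were outliers, it had no test with outlier spots missing. The gene encodes several proteins, among them a long non-muscle form, and which transcripts each probe reads was not tested.

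Lmod1, Smtn and Synpo2 encode further proteins of the actin filament. Leiomodin 1 nucleates actin filaments in smooth muscle, and its probe A_66_P123617 read -0.18, -0.29 and -0.41 in the controls and -0.10, 0.47 and 0.31 in the knockouts. All knockouts lay above all controls, the first of them by little, and the difference was 0.52 with all spots kept (SE 0.19, limma adjusted p = 0.143). Smtn encodes smoothelin, a marker of contractile smooth muscle. Its probe A_55_P2065824 read 2.20, 1.74 and 1.88 against 2.44, 2.25 and 2.53, with separate groups, no outlier spot and a difference of 0.47 (SE 0.18, limma adjusted p = 0.159). The other Smtn probe, A_66_P128161, read 1.99, 1.26 and 1.33 against 2.19, 2.09 and 2.51. Here too the groups were separate and the first control stood nearest the knockouts; the difference was 0.74 (limma adjusted p = 0.113) with 3 outlier spots kept. Synpo2 encodes synaptopodin 2, also called myopodin, a protein of the Z-disc and of dense bodies. Its brighter probe A_55_P2095133 read 1.89, 1.75 and 2.04 against 2.19, 1.98 and 2.36. The third control lay above the second knockout, 5 of its 6 spots were outliers, and the difference with all spots kept was 0.28 (limma adjusted p = 0.328). Its dim probe A_52_P223127 read -4.08, -4.80 and -4.89 against -4.37, -3.54 and -4.20, with overlapping groups and a difference of 0.55 (SE 0.31, limma adjusted p = 0.297).

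Des encodes desmin, the intermediate filament protein of muscle. Its single probe A_51_P335969 read 2.48, 2.18 and 2.17 in the controls and 2.89, 2.75 and 2.92 in the knockouts, so that the groups were well apart. The means were 2.28 ± 0.18 and 2.86 ± 0.09 (SD, n = 3 each), a difference of 0.58, or 1.49-fold (SE 0.16, limma adjusted p = 0.0810 with outlier spots kept). As 3 of its spots were outliers, Des could not be tested with outlier spots missing. On the unscaled signal its spots read 35445, 32250 and 29498 against 36490, 39271 and 43796, which do not overlap either.

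**Figure D2:**
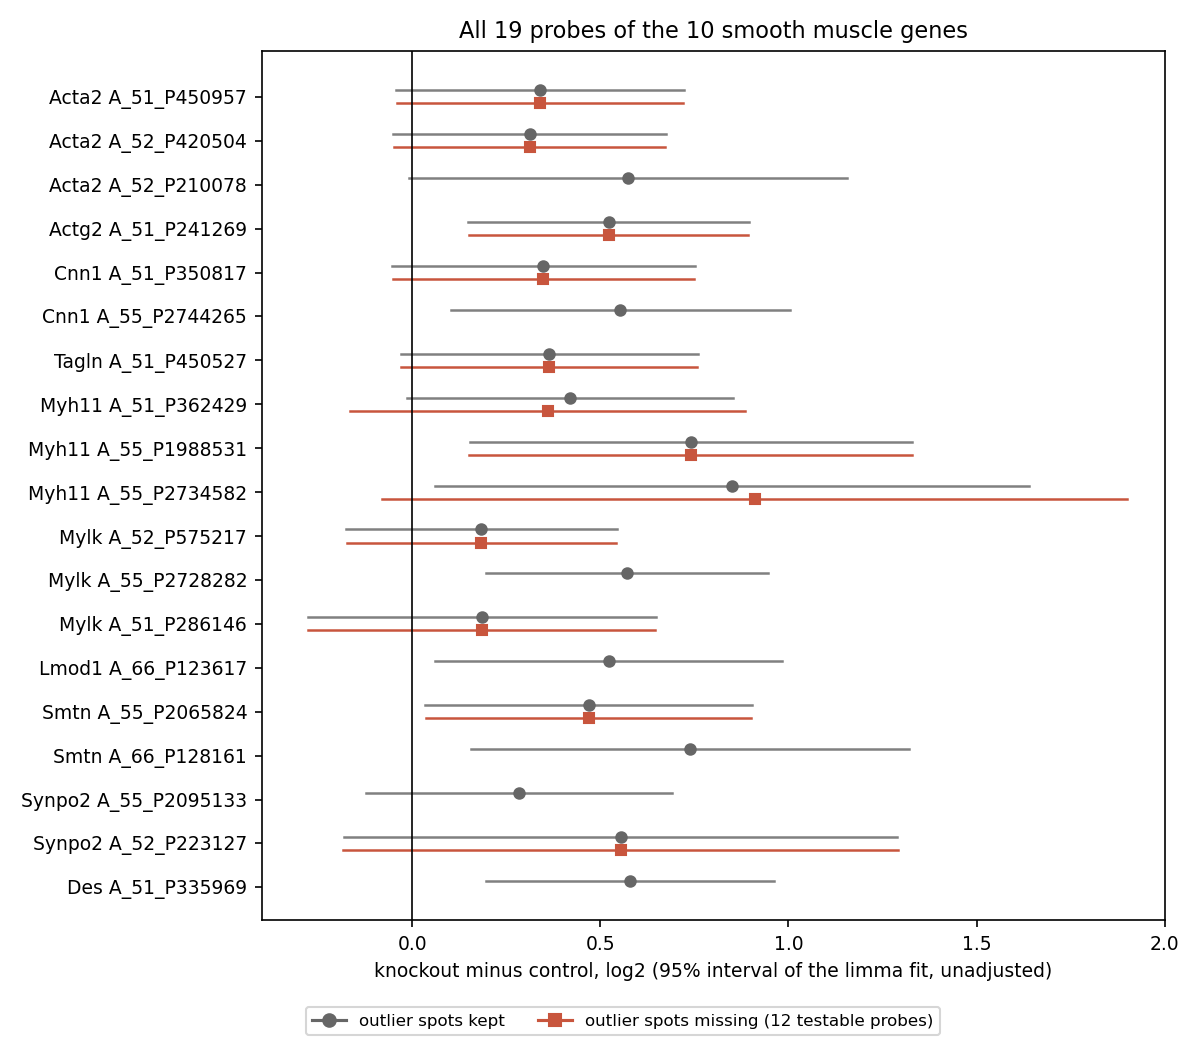
Knockout minus control difference of each of the 19 probes on the log2 scale, with 95% intervals of the limma fit that are not adjusted for the number of probes; circles have outlier spots kept and squares, drawn for 12 testable probes, have them missing. Each difference lies above 0, from 0.18 at Mylk to 0.85 at Myh11 with spots kept, and the intervals of 9 probes with spots kept exclude 0.

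Outlier spots fell on these genes in both groups. Of the 114 spots of the 19 probes, 28 were outliers, 11 on control and 17 on knockout arrays. By array they numbered 7, 2 and 2 of 19 on the controls and 9, 5 and 3 of 19 on the knockouts. Among all spots of these arrays 13.6%, 3.3% and 3.94% were outliers on the controls and 15.99%, 9.05% and 3.26% on the knockouts. On every array this was a smaller share than at the 19 probes. Of the 19 probes, 10 had no outlier spot. The marks removed 7 probes from testing, among them the only probes of Des and Lmod1. With their spots kept these 7 probes had a median difference of 0.57 (0.28 to 0.74), against 0.39 for the 12 that remained testable. At the 12 probes the marks moved the difference by at most 0.06. Over the genes, each at its brightest testable probe, the median difference was 0.36 for 8 genes with outlier spots missing and 0.39 for 10 genes with them kept, beside medians of 0.00 and 0.01 over all tested probes. On the scaled levels a probe with all knockouts above all controls was found 14 times among the 19, against 17.3% of all tested probes. At the brightest probe of a gene, groups were separate on that scale for 9 of 10 genes, all but Synpo2. On the unscaled signal they were separate only for Actg2 and Des, and there the share over all tested probes was not counted.

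The size of these differences depended on the scaling between arrays. Without any scaling, and with outlier spots kept, the differences of the 19 probes ran from -0.10 to 0.57 and 17 were above 0, beside 26.4% of all tested probes; the exceptions were Mylk probes A_52_P575217 and A_51_P286146, where the sign turned. The unscaled median over the 10 genes was 0.11, whereas that over all tested probes was -0.27. This scaling shifts every probe of an array alike. The distance of the genes from the median of all probes was thus similar on both scales, whereas the distance from 0 depended on it. Separation of the groups depended on it too. On the unscaled signal only the probes of Actg2 and Des had all knockouts above all controls. At Tagln, for example, the first control read 64229 and the second knockout 61772. The share of all tested probes with separate groups was not counted on the unscaled signal. For Acta2 probe A_51_P450957 the unscaled difference was 0.06, for Actg2 0.24 and for Des 0.30.

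**Figure D3:**
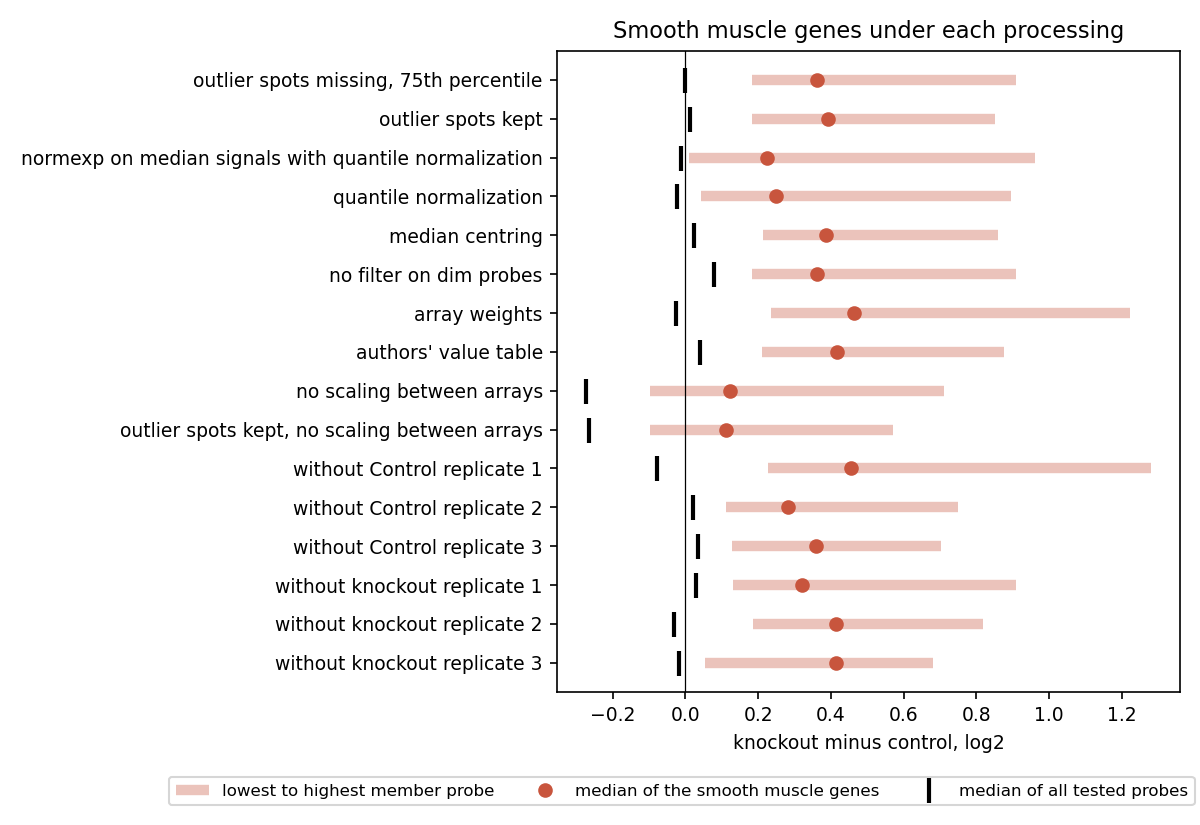
Differences of the smooth muscle genes under each processing, on the log2 scale: bars run from the lowest to the highest testable probe, points are the median over genes and black ticks the median over all tested probes. The median over genes lies above that of all probes under every processing shown, and falls to 0.12 and 0.11 without scaling.

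The genes are among the brightest on the array, where differences also leaned upward. Of the 19 probes, 14 fell in the brightest 10% of the 40172 tested probes. Those bright probes had a median difference of 0.17, with quartiles of 0.05 and 0.29, and 82.2% of them had a higher knockout mean. All knockouts lay above all controls at 28.9% of them, and 19 of 4018 were called. Of the 14 member probes among them, 12 exceeded the upper quartile and 12 had all knockouts above all controls. How far brightness bears on the members' differences was not tested further.

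**Figure D4:**
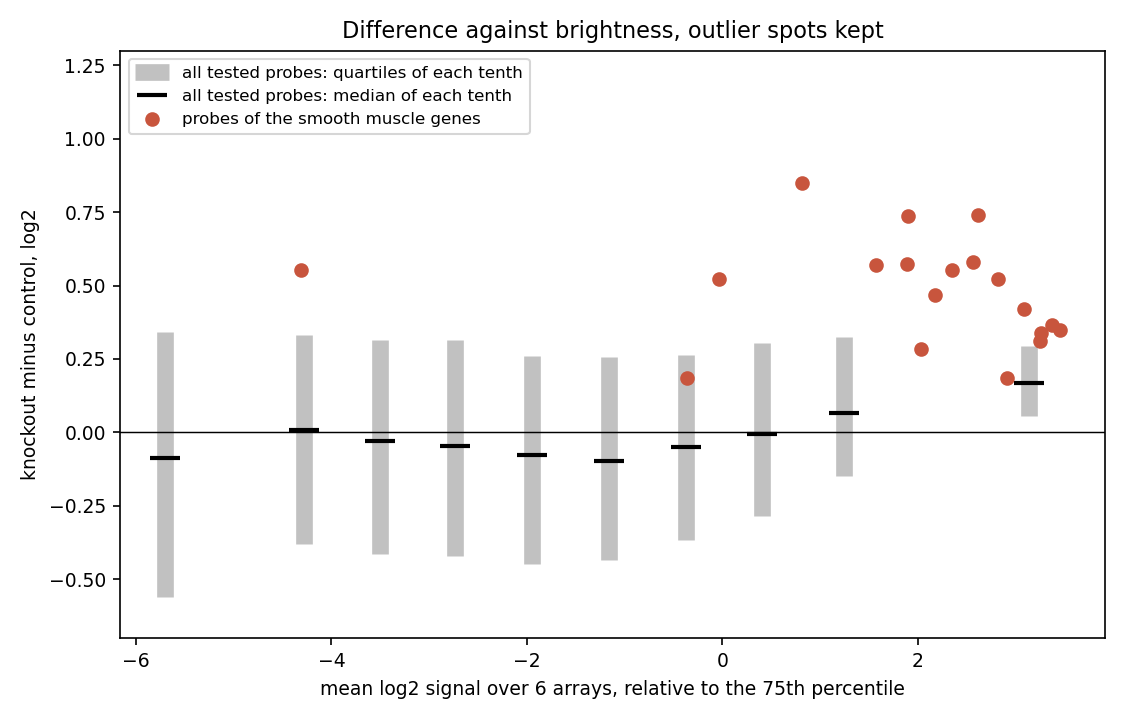
Knockout minus control difference on the log2 scale by mean log2 level, with outlier spots kept; all tested probes are split into 10 bins of equal number by level, ticks and grey bars give the median and quartiles of each bin, and points are the 19 probes of the smooth muscle genes. The median moves from -0.09 in the dimmest bin to 0.17 in the brightest, which holds 14 of the 19 points.

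The scaled levels differed between arrays within groups in a way that most of the genes shared. With 1 array per animal, array and animal cannot be told apart. The mean level of the 10 genes was 2.51, 2.23 and 2.35 on the control arrays and 2.82, 2.68 and 2.79 on the knockout arrays. Without scaling these means were 15.14, 15.022 and 15.026 against 15.085, 15.188 and 15.283. Knockout 1 thus turned from the highest knockout to the lowest, below control 1. Control 1 was the highest control at 16 of the 19 probes and control 2 the lowest at 12. Control 1 lay above the lowest knockout at 4 probes, control 2 at 0 and control 3 at 1. Control 1 and knockout 1 were also the arrays with the most outlier spots, 13.6% and 15.99% of spots. Leaving out control 1 raised the median difference of the testable genes to 0.46, and leaving out control 2 lowered it to 0.28. Across the 6 arrays the Pearson correlations of the 45 gene pairs ran from 0.36 to 0.98 with a median of 0.87. With each group's mean removed the median was 0.67 and 36 of the 45 pairs were above 0, the lowest at -0.72. These are descriptions over 6 arrays whose points share each array's scaling. Lmod1 and Synpo2 followed the others least, with mean correlations of 0.56 and 0.71.

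The 5 named genes outside every list whose levels across the 6 arrays were most like the mean of the smooth muscle genes were Trim16, Parp12, Osgin1, Ccng2 and Ift172. Their Pearson correlations with that mean lay between 0.9983 and 0.9997 over 6 arrays, the highest of 23722 probes searched. Trim16 read -1.39, -2.90 and -2.23 in the controls and 0.19, -0.50 and 0.08 in the knockouts, so its swing was wider than that of any member. Since these genes were picked for following a scaled mean that is itself higher on each knockout array, their differences are given with no test. With outlier spots missing they were 2.36 for Trim16, 1.15 for Parp12, 1.3 for Osgin1 and 0.96 for Ccng2. Ift172 had 5 outlier spots of 6 and differed by 1.43 with them kept. The outlier marks covered 2 spots of Trim16 and 1 of Parp12, which differed by 2.10 and 1.26 with these kept.

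Other genes of the contractile apparatus had values close to those of the brightest probes at large. Of 30 listed genes 26 were tested with outlier spots missing, 22 had a higher knockout mean, and limma called 0, with 3 higher and 1 lower at an unadjusted p under 0.05. Their median difference was 0.21, beside 0.36 for the smooth muscle genes and 0.00 for all tested probes. Under quantile normalization these medians were 0.10, 0.25 and -0.02. Of the 26, 17 lay among the brightest 10% of probes, whose median was 0.17 and of which 82.2% had a higher knockout mean, against 84.6% of the 26. Without scaling 8 of the 30 had a higher knockout mean and the median was -0.07, so the direction of this list turned. Among its brightest genes, Myl9, a regulatory light chain of smooth muscle myosin, differed by 0.39 (limma adjusted p = 0.217). The essential light chain gene Myl6 differed by 0.19 and the tropomyosin gene Tpm2 by 0.14, and both were below 0 without scaling. The widest upward difference was that of Synm, which encodes the intermediate filament protein synemin, at 0.67 (SE 0.17, limma adjusted p = 0.0688), and the widest downward one that of the calponin gene Cnn3 at -0.66 (limma adjusted p = 0.0969).

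Among 22 genes that set off or relax contraction, 20 were tested, 14 had a higher knockout mean, and limma called 2, both higher: Cacna1c and Pln. With outlier spots kept limma called 0 of 22 at each gene's brightest testable probe, with 4 higher and 2 lower at an unadjusted p under 0.05, and without scaling 5 of 22 had a higher knockout mean with a median of -0.21, so the direction of the list turned. Cacna1c encodes the pore of the L-type calcium channel. Its probe A_55_P2014154 read -3.39, -3.71 and -2.92 in the controls and -1.79, -2.25 and -1.66 in the knockouts, a difference of 1.44 (SE 0.26, limma adjusted p = 0.0423). With outlier spots kept this probe still passed (limma adjusted p = 0.0381), but a brighter probe, A_55_P2235931, then represented the gene. The other testable Cacna1c probes went the other way: A_51_P376996 differed by -0.43 (limma adjusted p = 0.286), and A_55_P2235931, testable only with outlier spots kept, by -0.31 (limma adjusted p = 0.417). Pln encodes phospholamban, the inhibitor of the calcium pump of the sarcoplasmic reticulum. It read -1.70, -3.79 and -3.49 against -2.43, -2.09 and -1.93, with the first control an outlier spot. The difference was 1.49 without that spot (limma adjusted p = 0.0390) and 0.84 with it (limma adjusted p = 0.353). When single arrays were left out, Cacna1c passed in 1 of 6 fits and Pln in 1 of the 4 in which it was testable. The receptor gene Tacr2, Rhoa and Rock1, the brightest of the list, differed by 0.21, 0.13 and -0.19, and the widest downward difference was that of Gucy1b1, a subunit of the nitric oxide receptor, at -1.13 (limma adjusted p = 0.0808).

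Genes of smooth muscle transcription gave values on both sides of 0. Of 13 listed, Barx1 was well above background on no array, 11 were tested, 6 had a higher knockout mean and limma called 0, with 0 higher and 1 lower at an unadjusted p under 0.05. Without scaling, and with outlier spots kept, 2 of 12 had a higher knockout mean. Klf4, a repressor of contractile genes, differed by 0.92 (limma adjusted p = 0.195), Mef2c by -0.99 (limma adjusted p = 0.295), Foxf1 by -0.56 (limma adjusted p = 0.216) and Mrtfa by 0.05 (limma adjusted p = 0.891). The Klf4 difference rested on 2 usable arrays per group. With outlier spots kept Klf4 read 2.93, 1.77 and 2.71 against 3.47, 3.14 and 3.18. Its lowest array, control 2, was also the lowest for the epithelial markers described below. What part cells other than muscle have in its value was not tested. Srf and Myocd, named after their values were seen, differed by 0.16 (limma adjusted p = 0.623) and 0.05 (limma adjusted p = 0.898). Of 6 non-muscle isoform genes, 5 were tested, 4 had a higher knockout mean and limma called 0, with 1 higher and 1 lower at an unadjusted p under 0.05. The cytoplasmic actins Actb and Actg1 differed by 0.25 and 0.14, and Vim, testable only with outlier spots kept, by -0.38. Without scaling, Actb and Actg1 differed by -0.035 and -0.056 with outlier spots missing. With outlier spots kept and no scaling, Actg1 differed by 0.002, and 2 of 6 genes of the list had a higher knockout mean.

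Markers of other cells that can express Acta2, Tagln or Myh11 had lower summed levels in the knockouts. Of 9 markers of pericytes and vascular smooth muscle, 6 were tested and 1 had a higher knockout mean. At an unadjusted limma p under 0.05, 4 of those tested were lower and 0 higher. The summed level of the 9 markers, on the linear scale relative to the 75th percentile, was 30.3 to 37.4 in the controls and 25.6 to 29.7 in the knockouts. That of the 10 smooth muscle genes was 54.8 to 67.5 against 73.9 to 85.8. Summed levels of these and the other lists were not taken on the unscaled signal. Pdgfrb, the receptor that marks pericytes and fibroblasts, read 2.07, 1.90 and 1.97 against 0.42, 1.02 and 1.00 and fell by 1.17 (SE 0.20, limma adjusted p = 0.0395), but it passed in 0 of 6 fits that left out an array. Among the brightest of the list, Mcam differed by 0.36, and, with outlier spots kept, Kcnj8 by -1.18 and Rgs5 by -0.17. Of 11 fibroblast markers, 10 were tested, 1 had a higher knockout mean and the median difference was -0.39 (-0.26 without knockout 1), with Col1a2, Col3a1 and Dcn at -0.08, -0.41 and -0.25. Their summed level was 45.0 to 54.2 against 30.7 to 42.4. The part of these cells in the members' differences was not tested.

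Neighbouring cell types of the muscle layers gave mixed or lower values. Of 6 markers of interstitial cells of Cajal, the pacemakers of gut muscle, 4 were tested, 1 had a higher knockout mean and the summed level was 5.99 to 8.54 against 5.98 to 7.08; Etv1 differed by -0.40 and, with outlier spots kept, Ano1 by 0.22 and Kit by -0.44. Of 12 markers of enteric neurons and glia, 10 were tested, 1 had a higher knockout mean, and the sum was 19.5 to 22.6 against 14.1 to 17.9. Their brightest genes Elavl4, Uchl1 and Vip differed by -0.02, -0.22 and -0.54. Of 6 mesothelial markers, 6 were tested, 1 had a higher knockout mean and the sum was 1.93 to 2.299 against 0.82 to 2.26, with Msln, Upk1b and Wt1 at -0.48, -0.87 and -1.29. Limma called 0 genes of these 3 lists and of the fibroblast list, with 0 higher and 1, 3, 1 and 3 lower at an unadjusted p under 0.05 in the order given.

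Skeletal muscle markers were measured because striated muscle shares Des and Synpo2. Of 16 listed, 15 were tested, 10 had a higher knockout mean and 2 were called, Myh1 and Myh2, which encode myosin heavy chains of fast fibres. Without scaling 5 of 15 had a higher knockout mean and the median turned from 0.12 to -0.16. Myh1 read -5.28, -4.76 and -4.95 in the controls and -2.73, -2.99 and -3.07 in the knockouts, a rise of 2.07 (limma adjusted p = 0.0160). It passed in 4 of 6 fits that left out an array, with limma adjusted p-values of 0.0531 without control 3 and 0.0530 without knockout 3. Myh2 was not well above background on any control array and was so on all 3 knockout arrays, at least 4.61-fold higher (limma adjusted p = 0.0103), and passed in 6 of 6 such fits. The brightest of the list, Acta1, Myl1 and Tnnt1, differed by 0.13, -0.05 and 1.11 without passing. The summed level was 5.30 to 6.27 in the controls and 7.29 to 9.05 in the knockouts, and what part striated muscle has in the values of Des and Synpo2 was not tested.

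The remaining lists mark the rest of the colon wall. Of 10 epithelial markers 8 were tested, 8 had a higher knockout mean and limma called 0, with 2 higher at an unadjusted p under 0.05. The median difference was 1.08. With outlier spots kept, 6 of the 10 markers were higher and 0 lower at an unadjusted limma p under 0.05. Their summed level was 71.3, 21.7 and 51.2 in the controls and 108, 81.5 and 83.7 in the knockouts, so the array with the lowest epithelial sum, control 2, was also the one with the lowest mean level of the smooth muscle genes. Krt8, Krt19 and Krt20 differed by 0.68, 0.85 and 0.82. Without control 2 the median difference of the epithelial list was 0.47, Krt8 differed by 0.25 and Krt19 by 0.30, and Krt20 could not be tested. Of 7 endothelial markers, 6 were tested, 0 had a higher knockout mean and limma called 0, with 5 lower at an unadjusted p under 0.05. Their sum was 7.40 to 9.10 against 2.59 to 5.25, with Eng, Kdr and Vwf at -1.58, -0.88 and -0.38. Of 9 leukocyte markers 8 were tested, 1 had a higher knockout mean and 2 were called lower, the neutrophil genes S100a8 at -3.92 (limma adjusted p = 0.0327) and S100a9 at -3.73 (limma adjusted p = 0.0245). When 1 array was left out, S100a8 passed in 3 of 4 testable fits, with a limma adjusted p of 0.0555 without knockout 3. S100a9 passed in 3 of 6, with 0.0673 without control 2, 0.0667 without control 3 and 0.0521 without knockout 3. The summed level of the leukocyte markers was 28.3 to 31.2 against 17.7 to 23.3, with Csf1r at -0.37, Itgam at 0.27 and, with outlier spots kept, Lyz2 at -0.45. The summed levels of these 3 lists did not overlap between the genotypes, and their part in the members' differences was not tested.

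**Figure D5:**
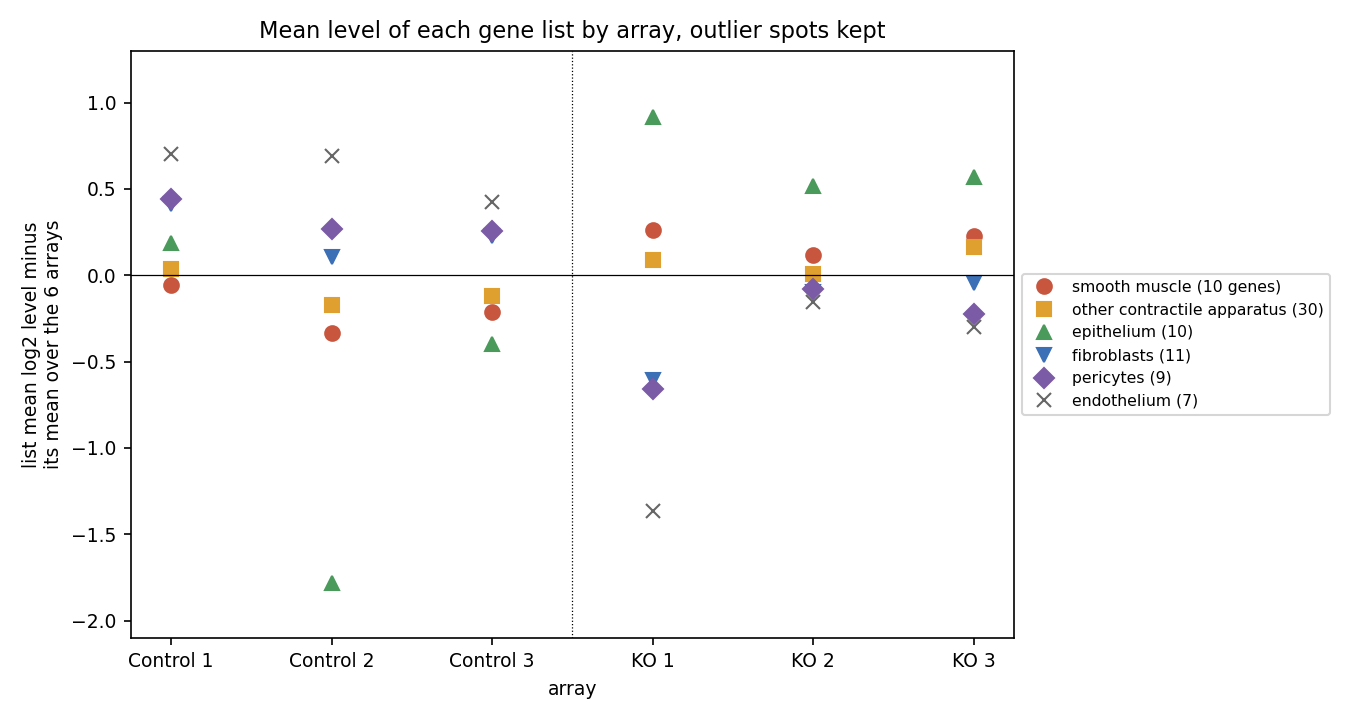
Mean log2 level of 6 gene lists on each of the 6 arrays, each minus its mean over the arrays, with outlier spots kept; points are single arrays. The smooth muscle genes and the epithelial markers are higher on all knockout arrays than on any control array, and the pericyte, fibroblast and endothelial markers are lower.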

How the data were processed

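Colon RNA from 6 mice was hybridised to 1 single-colour Agilent array each (design 074809), 3 per genotype. Dye and signal column are Cy3 and green in the labels, but the files hold the red channel, which was used. The processed signal is an intensity on a linear scale, background-subtracted and detrended in Feature Extraction 11.5.1.1 and not scaled between arrays, per the file headers (version 10.7 per the submitters' processing notes). The series' deposited value table holds the same intensity, unlogged and not centred (log2 correlation with the scanner values of at least 0.999999), and its column medians were 669, 829, 783, 492, 711 and 665. It was used as an alternative.

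Signals were converted to log2, the array's 75th percentile over non-control spots was subtracted, and spots marked as non-uniform or population outliers were set missing (main setting) or kept. A probe was tested if well above background on all 3 arrays of a group, with at least 2 usable values in each group. That left 35351 of 56605 probes with outlier spots missing and 40172 with them kept. Differences were tested with limma 3.58.1 (R 4.3.3), two-sided, with Benjamini-Hochberg adjustment over all tested probes at 5%, after the procedure had been tested on simulated data. Each group's mean rests on 3 arrays, which limits the precision. A gene was represented by its testable probe of highest mean level. Symbols came from RefSeq accessions (GRCm38.p6), which named 33767 probes (59.6%).

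All members were named with every probe, and from each other list each called gene and the 3 brightest, in the apparatus, signalling and transcription lists also the widest difference each way. The members and lists were chosen with earlier results of these data known. A normexp alternative used the median spot signal in place of the mean. Other alternatives were quantile normalization, median centring, no dim-probe filter, array weights, no scaling, gene means over probes and leaving out each array.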

Additional observations from a re-analysis of the deposited data

How the results depend on the processing

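Counts over all tested probes moved most with the processing. Against 1403 called probes, normexp with quantile normalization gave 2768, quantile normalization 2185, median centring 2249, the values deposited by the authors 2274, array weights 9292, no filter on dim probes 484 and no scaling 836, and leaving out 1 array gave 40 (without knockout 3) to 2114 (without control 1). The share of calls higher in the knockout was 39.1%, and 49.4% with array weights and 21.4% without scaling. Over the other lists 7 genes were called, against 13, 12, 13, 3 and 36 under normexp with quantile normalization, quantile normalization, median centring, no filter and array weights, and 1 to 8 when 1 array was left out. Of the smooth muscle genes, each at its brightest testable probe, 0 were called in every fit except that with array weights, the leave-one-out fits included. With array weights 3 were (Actg2, Smtn and, at its dim probe A_52_P223127, Synpo2), as 26.3% of all tested probes were. Counted by probe, array weights called 5 of 12 member probes, Myh11 probes A_55_P1988531 and A_55_P2734582 among them. These Myh11 probes were also called without control 1. The median difference of the smooth muscle genes, 0.36 in the main setting, was 0.22 under normexp with quantile normalization. It was 0.12 without scaling and 0.11 without scaling and with outlier spots kept (both chosen after seeing the data). When 1 array was left out it was 0.28 to 0.46. All tested member probes were higher in the knockout in each scaled fit; without scaling Mylk probes A_52_P575217 and A_51_P286146 both turned to -0.10. With outlier spots kept and control 1 left out, Myh11 and Smtn probes had limma adjusted p-values from 0.0335. Islr passed in 3 of 4 testable leave-one-out fits, at -2.58 to -2.35; the exception, without knockout 3, was -2.39. Of the other genes named for brightness, 9 of 32 changed sign without scaling. No paired analysis was possible because the labels give no replicate numbers that animals of both groups share.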
